A study of Mus musculus with 24 samples.

Results

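The p53 targets that restrain mTORC1 or act in metabolism are 10 genes chosen by name, of 25239 genes in the table: Sesn1, Sesn2, Ddit4, Gls2, Sco2, Fdxr, Pank1, Dcxr, Ak1 and Aldh4a1. 9 of them passed the filter on low values (a TPM, the length-scaled share of all transcripts, of at least 1 in at least 3 libraries) and were tested among 14104 genes; Sco2 did not pass. With p53 restored, 5 of the 9 rose in both types of line: Sesn2, Ddit4, Dcxr, Ak1 and Aldh4a1. Sesn1, Gls2, Fdxr and Pank1 did not pass the test in either type. Passing took an adjusted p below 0.05 and a change of 1 log2 or more.

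RNA was sequenced from 6 lines of mouse small cell lung cancer (SCLC), a neuroendocrine lung tumour that usually lacks p53 and RB. Each line came from a single lung tumour of a mixed B6J/129S4vJae mouse infected with an adenovirus that carries Cre under the CMV promoter, which is active in many cell types, so the cell of origin is not set by the vector. Cre deleted Rb1 and Rbl2 and inverted the Trp53 XTR gene trap, so all 24 libraries, controls included, lack Rb1 and Rbl2 and also carry FlpO-ER at Rosa26. Control cells received vehicle (ethanol) and keep the trap, which turns p53 off; Restored cells received 4-hydroxytamoxifen (4-OHT), which activates FlpO-ER to remove the trap. Cyclosporin A (CsA), an inhibitor of cyclophilins, was given to cells of either state (Control + CsA, Restored + CsA), and all cells were taken at 72 hours. The study calls lines Type D where they die on restoration (4711-1, 4711-18 and 4716-11) and Type V where they stay viable (4711-11, 4716-10 and 4716-14), and each of the 8 groups holds 1 library from each of 3 lines. Effects of 4-OHT and of p53 cannot be told apart, since no library had 4-OHT without restoration. In the text, values of 3 lines follow that order.

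p53 is a transcription factor that is stabilised under stress and raises genes of cell cycle arrest and death, and also a set that lowers growth signalling or alters metabolism. The sestrins and Ddit4 (REDD1) act on mTORC1, the kinase complex that couples nutrients and growth factors to protein synthesis: Sesn1 and Sesn2 inhibit GATOR2 and hence the Rag GTPases, and Ddit4 acts through the TSC complex on Rheb. Gls2 turns glutamine into glutamate in mitochondria, Aldh4a1 carries out a late step of proline breakdown to glutamate, Pank1 starts the synthesis of coenzyme A, Ak1 balances adenine nucleotides, and Dcxr reduces dicarbonyls and L-xylulose. Fdxr passes electrons from NADPH to ferredoxin, and Sco2 helps to place copper in cytochrome c oxidase. Sesn2 and Ddit4 are also known targets of ATF4, the factor of the integrated stress response, and Ddit4 of hypoxia.

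The labels were checked on Trp53, which lay between 10.5 and 15.3 TPM in the 12 libraries without restoration and between 181 and 253 TPM in the 12 with it. Cdkn1a, the cell cycle inhibitor p21, rose with restoration by 4.17 log2 (Type D) and 4.80 (Type V), and Mdm2, the ubiquitin ligase of p53, by 4.37 and 3.36. Of 8 neuroendocrine markers Chga was listed at 0 in all 24 libraries and Neurod1 did not exceed 0.0954 TPM, so these defining markers of SCLC were absent or nearly so in these cultures at RNA level. Ncam1 lay between 4.46 and 27.3 TPM, and the sum of the 8 markers was 9.63 to 20.4 TPM in Type D Control and 33.0 to 79.2 in Type V Control. Vim ranged from 2365 to 5360 TPM in all lines, and the sum of Col1a1, Col1a2, Pdgfra and Dcn was 184 to 457 TPM in Type V Control against 0.595 to 1.31 in Type D Control. Of the immune markers Cd68, which encodes a lysosomal membrane protein, rose with restoration by 1.95 log2 (Type D) and 1.28 (Type V), and with it the sum of the 4 markers, from 8.84 to 11.1 TPM to 30.4 to 56.0 in Type D and from 6.96 to 10.2 to 16.2 to 31.8 in Type V; Cd3e was at 0 and Ptprc did not exceed 0.154 TPM in any library. The sum of 3 endothelial markers did not exceed 0.615 TPM and that of 3 club cell markers did not exceed 0.767. Of the 4 alveolar type 2 markers Sftpb reached 92.9 TPM, in Type D without restoration, where the sum of the list ran from 1.00 to 94.2 TPM against 1.13 to 2.70 with it, and Sftpc did not exceed 1.44. In bulk RNA, fewer cells of a kind and less RNA per cell cannot be told apart. No sequencing depth can be read from TPM.

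RefSeq promoter windows of GRCm38.p6, from 250 bases before to 50 after each start site, were found for 9 of the 10 members, in 14 windows; Gls2 was not among them. They were searched on both strands for the p53 consensus, a pair of 10-base half-sites with a spacer of 0 to 13 bases, allowing at most 3 mismatches and none in the fixed C and G of either core. A match lay in 4 of the 14 windows, 28.6%, against 15.6% of 32851 windows of that length in all genes, and in 1 window each of Sesn1, Fdxr, Dcxr and Aldh4a1. The stretch before the start site that holds the match is shown for these members, since 2 of them rose with restoration and 2 did not pass the test, and for Cdkn1a as a yardstick. The match is in capitals, with 40 bases on either side, and each stretch is 5′ to 3′ on the strand of its gene.
Sesn1, chr10:41887213-41887315, plus strand: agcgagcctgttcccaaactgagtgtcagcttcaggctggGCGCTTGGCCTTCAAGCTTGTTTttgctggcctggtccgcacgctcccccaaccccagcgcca
Fdxr, chr11:115277027-115277134, minus strand: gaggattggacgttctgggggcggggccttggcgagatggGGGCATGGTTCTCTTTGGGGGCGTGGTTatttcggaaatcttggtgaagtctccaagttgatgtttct
Dcxr, chr11:120727346-120727446, minus strand: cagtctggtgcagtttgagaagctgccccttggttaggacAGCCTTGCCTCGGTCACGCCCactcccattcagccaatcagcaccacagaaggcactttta
Aldh4a1, chr4:139622713-139622822, plus strand: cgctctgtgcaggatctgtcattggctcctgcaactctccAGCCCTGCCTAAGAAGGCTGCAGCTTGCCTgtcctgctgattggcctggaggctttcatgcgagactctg
Cdkn1a, chr17:29090866-29090977, plus strand: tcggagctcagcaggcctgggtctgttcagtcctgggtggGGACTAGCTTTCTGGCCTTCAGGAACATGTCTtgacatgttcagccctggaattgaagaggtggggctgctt

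The match of Dcxr had 3 mismatches and a spacer of 1 base and ended 101 bases before the start site. Those of Fdxr and Aldh4a1 also had 3 mismatches, with spacers of 8 and 10 bases. The best match of Sesn1 had 2 mismatches and a spacer of 3 bases, at the second of its 2 listed start sites. That window held 6 matches, and only the best is in capitals. The best match of Cdkn1a had 0 mismatches, a state reached in 0.0731% of all windows. It had a spacer of 12 bases and lay at the upstream start site, and the window of the downstream start site held no match. The upstream window held 2 matches, and only the match with the fewest mismatches is in capitals. Sesn2, Ddit4, Ak1, Pank1 and Sco2 had no match in these windows. The letters TGATGNAA, the core of the element that ATF4 binds with C/EBP proteins, searched on both strands, occurred in 0 of the 9 members and in 3.97% of all windows. Such letters are a description and not a bound site, and their absence covers these windows and no more.

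With restoration, 5 of 9 tested members were called higher in Type D (limma, an adjusted p below 0.05 with a change of 1 or more on the log2(TPM + 1) scale), against 4.49% of the 14104 genes tested, and 0 were called lower, against 2.44%. In Type V, 5 of 9 were called higher, against 3.39%, and 0 lower, against 1.9%. They were the same 5 genes. The median change of the 9 members was 1.71 log2 for Type D and 1.67 for Type V, against medians of 0.07 and 0.05 over all genes tested. All 5 were higher in 6 of 6 lines, which 23.8% of genes tested were.

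**Figure D1:**
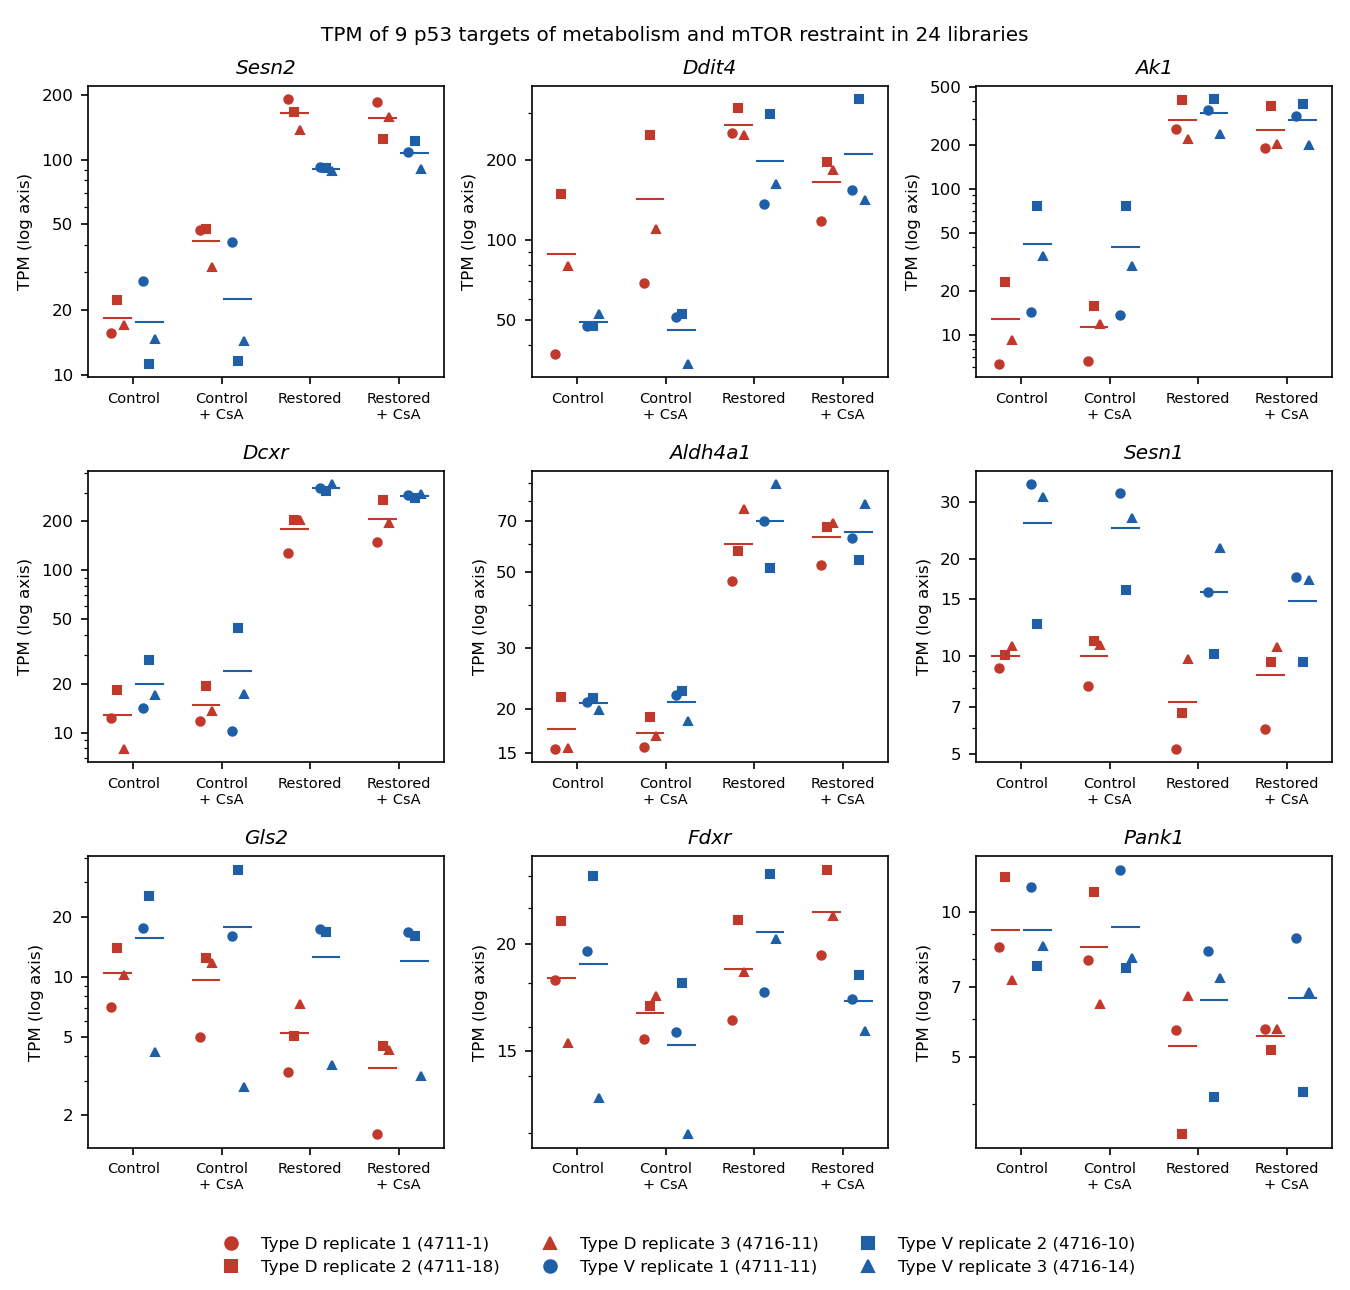
TPM (log axis, scaled for each gene) of the 9 tested members in the 24 libraries, by treatment; red is Type D and blue Type V, symbols mark the lines, and bars are means of 3 lines. Sesn2, Ak1, Dcxr and Aldh4a1 lie higher in every Restored library than in every Control library, Ddit4 lies higher within each type, and the other 4 overlap between Control and Restored over both types.

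Sesn2 (chr4:132492032-132510501, minus strand, all gene positions in GRCm38) encodes the stress-inducible sestrin, which also senses leucine. Its level in Type D was 15.7, 22.1 and 17.0 TPM with the trap in place, against 191, 166 and 137 TPM after restoration. In Type V it went from 27.2, 11.2 and 14.6 TPM to 92.8, 91.4 and 88.3. Control and Restored libraries did not overlap in either type, and the Restored libraries of Type D all lay above those of Type V. By limma the rise was 3.11 ± 0.35 log2 (SE, n = 3 lines) for the Type D lines (adjusted p = 5.58e-06) and 2.39 ± 0.35 for the Type V lines (adjusted p = 0.000145). The difference between the types in this response was 0.72 log2 (95% interval -0.32 to 1.75), and that between their Restored levels was 0.84 (0.11 to 1.57), limma adjusted p = 0.114, so neither was called.

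Ddit4 (chr10:59949669-59951834, minus strand) varied more between lines. In Type D it went from 37.0, 148 and 79.7 TPM to 252, 312 and 247. In Type V it went from 47.2, 47.3 and 52.3 TPM to 136, 296 and 161. The groups did not overlap within either type, although line 4711-18 of Type D was already higher in Control than line 4711-11 was after restoration. By limma the rise was 1.81 ± 0.47 log2 for the Type D lines (adjusted p = 0.0135) and 1.91 ± 0.47 for the Type V lines (adjusted p = 0.0114). In this fit, without a block for the line, the call depended on which lines were kept. In Type D it was lost without 4711-1 (1.34 log2, limma adjusted p = 0.115) or without 4716-11 (1.90, adjusted p = 0.102). In Type V it was lost without any 1 of the 3 lines (1.56 to 2.11, limma adjusted p = 0.0602 to 0.11). It was also lost in Type D when the fit held the compared groups alone (limma adjusted p = 0.0863). With the replicate block, which compares libraries of the same line, Ddit4 was called in both types (limma adjusted p = 0.000159 and 0.000117). Within lines it rose by 1.07 to 2.73 log2 in Type D and by 1.51 to 2.62 in Type V.

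Ak1 (chr2:32621758-32635058, plus strand), adenylate kinase of the cytosol, had the largest rise of the 9 members in Type D. It went from 6.29, 23.1 and 9.24 TPM to 257, 408 and 219 in Type D. In Type V it went from 14.2, 76.2 and 34.5 TPM to 349, 412 and 238. After restoration the types overlapped, from 219 to 408 TPM against 238 to 412. By limma the rise was 4.55 ± 0.59 log2 for the Type D lines (adjusted p = 2.76e-05) and 3.23 ± 0.59 for the Type V lines (adjusted p = 0.00123). When the fit held the compared groups alone the call in Type V was lost (adjusted p = 0.0633). The difference of the responses was 1.32 log2 (95% interval -0.43 to 3.07) and was not called. With the replicate block its interval was 0.22 to 2.42 (limma adjusted p = 0.147), and the difference was again not called.

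Dcxr (chr11:120725399-120727281, minus strand), dicarbonyl and L-xylulose reductase, had the largest rise in Type V. It went from 12.2, 18.2 and 7.89 TPM to 127, 204 and 205 in Type D and from 14.2, 28.1 and 17.1 TPM to 321, 307 and 338 in Type V. Each Restored library of Type V lay above each of Type D. By limma the rise was 3.74 ± 0.39 log2 for the Type D lines (adjusted p = 2.25e-06) and 4.01 ± 0.39 for the Type V lines (adjusted p = 1.54e-06). The difference between the types in the Restored state was -0.88 log2 (Type D minus Type V, 95% interval -1.69 to -0.06), limma adjusted p = 0.138.

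Aldh4a1 (chr4:139622866-139649690, plus strand), a mitochondrial aldehyde dehydrogenase, rose by a similar amount in each type. It went from 15.3, 21.8 and 15.4 TPM to 46.8, 57.3 and 75.7 in Type D and from 21.0, 21.6 and 19.9 TPM to 69.9, 51.1 and 89.2 in Type V. The change was 1.71 ± 0.21 log2, limma adjusted p = 1.49e-05, and 1.67 ± 0.21, adjusted p = 3.02e-05. The difference of the responses was 0.04 log2 (95% interval -0.58 to 0.66). A read-through gene, Gm21969, spans Aldh4a1 on the same strand, and reads of the pair may have been split.

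Sesn1 (chr10:41809935-41908424, plus strand) is the sestrin long known as a p53 target. It ranged from 9.24 to 10.8 TPM in Type D Control and from 5.18 to 9.84 in Type D Restored, and from 12.6 to 33.9 and 10.2 to 21.6 TPM in Type V. The change was -0.46 log2 (95% interval -1.22 to 0.30) in Type D and -0.62 (-1.37 to 0.14) in Type V, the sign opposite to that of Sesn2. Restored libraries overlapped Control libraries in both types. An increase of over 0.30 log2 in Type D and of over 0.14 in Type V thus lay outside the intervals of this gene. With the replicate block both intervals lay below 0. They were -0.78 to -0.13 in Type D (limma adjusted p = 0.0227) and -0.94 to -0.29 in Type V (limma adjusted p = 0.00455). Neither change reached 1 log2, so neither was called.

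Pank1 (chr19:34806940-34879455, minus strand) and Gls2 (chr10:128194457-128210004, plus strand) also had values below 0. Pank1 ranged from 7.21 to 11.8 TPM in Type D Control and from 3.46 to 6.71 after restoration, without overlap, and from 7.71 to 11.3 and 4.14 to 8.29 TPM in Type V. Its change was -0.70 log2 (95% interval -1.32 to -0.08; limma adjusted p = 0.138) in Type D and -0.45 (-1.07 to 0.17; adjusted p = 0.419) in Type V. Gls2 ranged from 7.09 to 14.0 TPM in Type D Control and from 3.31 to 7.29 after restoration, and in Type V the line 4716-14 was low in both states (4.19 and 3.60 TPM) beside 16.9 to 25.6 in the other lines. The change of Gls2 was -0.89 log2 (-2.51 to 0.74) in Type D and -0.25 (-1.88 to 1.37) in Type V, with the widest intervals of the 9 members. Sesn1, Pank1 and Gls2 were each lower in 6 of 6 lines, as were 16.1% of all genes tested. With the replicate block the Type D interval was -1.16 to -0.24 for Pank1 (limma adjusted p = 0.0149). For Gls2 it was -1.35 to -0.42 (limma adjusted p = 0.00368). The Type V intervals of Pank1 and Gls2 included 0 in that fit, and none of these changes reached 1 log2. The block fit gave 7369 of 14104 genes an unadjusted limma p under 0.05 in Type D and 6887 in Type V. Gls2 overlaps Spryd4, on the other strand, over 97 bases, and Pank1 holds Mir107.

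Fdxr (chr11:115268024-115277050, minus strand) moved little. It ranged from 15.3 to 21.3 TPM in Type D Control and from 16.3 to 21.3 in Type D Restored, and from 13.2 to 24.02 and 17.6 to 24.1 TPM in Type V. The change was 0.04 log2 (95% interval -0.39 to 0.46) in Type D and 0.15 (-0.28 to 0.57) in Type V. Sco2 (chr15:89371637-89373846, minus strand) was listed at 0 in 15 of 24 libraries and did not exceed 0.310 TPM in any. An entry of 0 here can be a failed estimate: Ndufs5, a subunit of complex I, was listed at no more than 0.375 TPM in any library. Sco2 shares 1916 bases with Tymp on its own strand (2.88 TPM on average) and 1190 with Ncaph2 on the other (166 TPM), so its level was not read. Its paralogue Sco1 lay between 9.07 and 17.1 TPM.

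**Figure D2:**
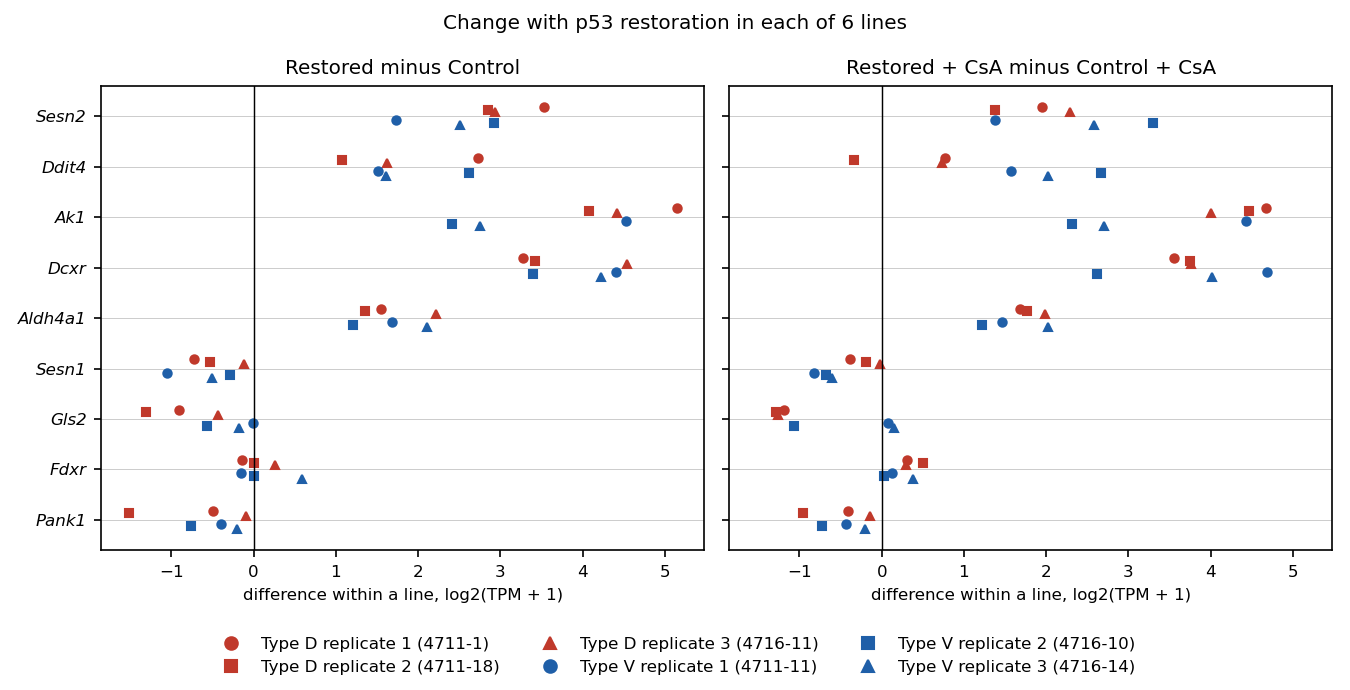
Difference in log2(TPM + 1) between Restored and Control within each line, without CsA (left) and with CsA in both states (right), for the 9 tested members; 1 symbol is 1 line, red Type D and blue Type V. Sesn2, Ak1, Dcxr and Aldh4a1 lie above 0 in every line on both sides, Ddit4 of Type D lies between 1.07 and 2.73 on the left and between -0.34 and 0.77 on the right, and Sesn1 and Pank1 lie below 0 throughout.

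Between types, 0 of 9 members differed in their response to restoration, a difference called in 4 genes of 14104, 0.0284%. At an unadjusted limma p under 0.05 it was 0 members and 540 genes. With the replicate block 0 members and 344 genes were called. In that fit 1 member (Ak1) and 3162 genes had an unadjusted limma p under 0.05. In Control cells 1 of 9 members differed between types, Sesn1, against 8.83% of genes tested. Sesn1 stood at 9.24, 10.1 and 10.8 TPM in Type D and at 33.9, 12.6 and 31.0 in Type V, without overlap, a difference of -1.17 log2 (Type D minus Type V, limma adjusted p = 0.0394). The median over all genes in this comparison was -0.12. The call was narrow: it was lost with no filter on low values (adjusted p = 0.0576), with the compared groups alone (0.149) and without any 1 line except 4716-10 (-0.92 to -1.21 log2 where lost, adjusted p = 0.106 to 0.179). Ak1 was lower in Type D Control by -1.51 log2, limma adjusted p = 0.101, and passed without line 4711-11 (-2.11, adjusted p = 0.0254).

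In Restored cells 0 of 9 members differed between types, against 9.44% of genes tested, and 3 members and 4120 genes had an unadjusted limma p under 0.05. Sesn1 differed by -1.01 log2 (adjusted p = 0.0681), and by -1.28 without line 4716-10 (adjusted p = 0.00318), the Type V line with the lowest Sesn1. Gls2 differed by -0.94 log2 (limma adjusted p = 0.451), and by -1.60 without line 4716-14 (limma adjusted p = 0.0364), the Type V line with the lowest Gls2. Of the collagen genes, Col1a2 was called between types in Restored cells (-3.15 log2, limma adjusted p = 0.0024), and Col1a1 was not called. A relation of collagen levels to Sesn1 or Gls2 was not tested.

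Under CsA the response values of 2 mTORC1 regulators, Ddit4 and Sesn2, were smaller in Type D than without it, but the difference was not called. With CsA in both states, restoration raised 4 of 9 members in Type D, against 3.53% of genes called higher, and 5 of 9 in Type V, against 2.84%. Ak1, Dcxr and Aldh4a1 rose by 4.38, 3.69 and 1.81 log2 in Type D and by 3.15, 3.77 and 1.57 in Type V. In Type V the calls of Sesn2, Ddit4 and Ak1 were lost when the fit held the compared groups alone (limma adjusted p = 0.0769, 0.0624 and 0.0792), and that of Ddit4 also without line 4716-10 (1.79 log2, adjusted p = 0.0751) or 4716-14 (2.12, adjusted p = 0.0679).

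With CsA throughout, Ddit4 of Type D went from 68.4, 247 and 109.5 TPM to 117, 195 and 183, so that the groups overlapped and line 4711-18 was lower after restoration. In Type V it went from 51.0, 52.4 and 34.1 TPM to 153, 337 and 141. The change was 0.39 ± 0.47 log2 (limma adjusted p = 0.723) for Type D and 2.08 ± 0.47 (adjusted p = 0.00698) in Type V. The difference between the types was -1.70 log2 (95% interval -3.08 to -0.32), limma adjusted p = 1 without a block, and was called with the replicate block, which compares libraries of the same line (adjusted p = 0.0308). Of all genes 0.0142% were called without the block and 2.32% with it. That comparison was added after the values were seen. So were the difference CsA makes to restoration in each type and the difference of the CsA effect in Control cells between types.

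Within Type D, the response of Ddit4 with CsA was smaller than without it by -1.42 log2 (95% interval -2.80 to -0.04; limma adjusted p = 1), a difference called in 0% of genes. Both ends moved. CsA alone took Ddit4 from 37.0 to 68.4, from 148 to 247 and from 79.7 to 109.5 TPM in the 3 Type D lines, a change of 0.69 log2 (-0.29 to 1.66). Added to restored cells it took Ddit4 from 252 to 117, from 312 to 195 and from 247 to 183 TPM, a change of -0.74 (-1.71 to 0.24), and the Restored + CsA libraries all lay below the Restored libraries. In Type V the same changes were -0.12 and 0.05 log2.

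**Figure D3:**
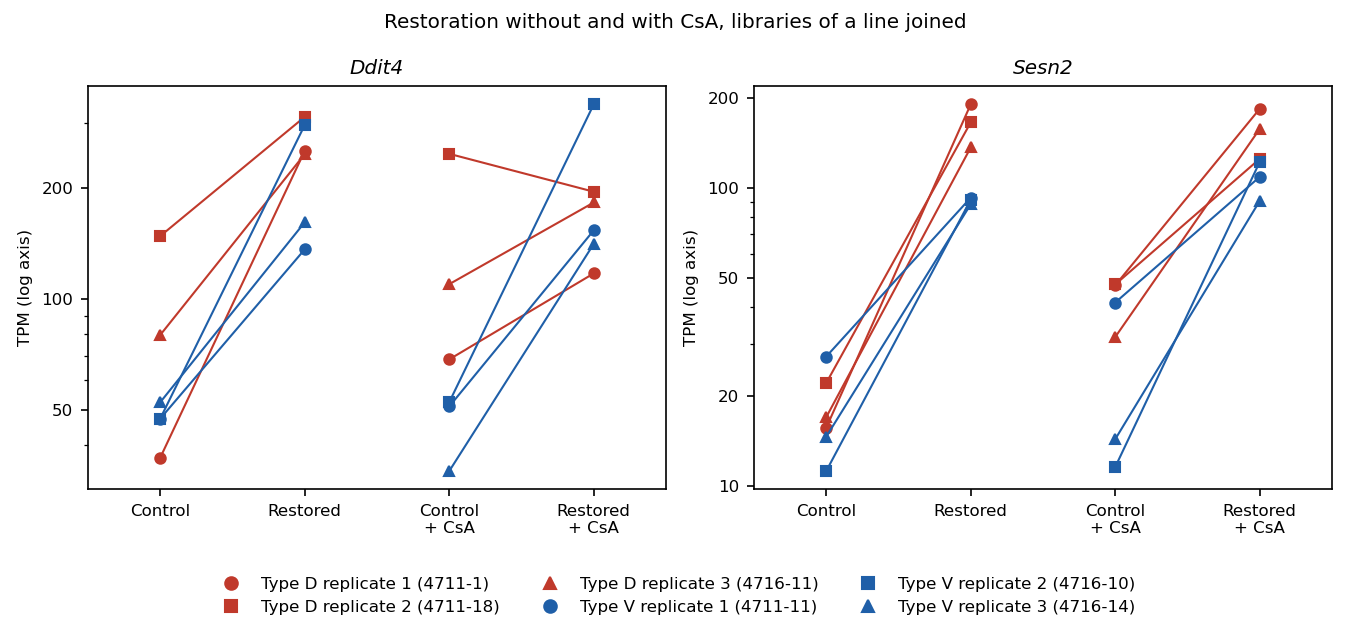
TPM (log axis) of Ddit4 (left) and Sesn2 (right), with a line joining the Control and Restored libraries of each cell line without CsA and with CsA; red is Type D and blue Type V. For Ddit4 the 3 Type D lines climb to 247 to 312 TPM without CsA and end at 117 to 195 TPM with it, and for Sesn2 the Type D lines start higher with CsA (31.6 to 47.4 TPM against 15.7 to 22.1).

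Under CsA the Type D lines held Sesn2 at 47.1, 47.4 and 31.6 TPM before restoration, above each of their 3 Control libraries. After it they held 185, 125 and 158 TPM, which overlapped the Restored libraries. CsA alone thus moved it by 1.15 log2 (95% interval 0.42 to 1.88; limma adjusted p = 1) in Type D, higher in 3 of 3 lines, and by 0.20 (-0.53 to 0.93) in Type V. CsA alone was called in 0% of the genes in either type. The rise of Sesn2 with restoration was 1.87 ± 0.35 log2 under CsA in Type D, limma adjusted p = 0.00138, and was lost without line 4716-11 (1.67, adjusted p = 0.0644); in Type V it was 2.42, from 41.3, 11.6 and 14.3 TPM to 109, 122 and 90.6. CsA made a difference of -1.23 log2 to the response in Type D (95% interval -2.26 to -0.20), limma adjusted p = 1, and the effect of CsA in Control cells differed between types by 0.95 (-0.08 to 1.98).

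Over Control cells, 0 of 9 members were called in either type, and at an unadjusted limma p under 0.05 it was 1 member (Sesn2) and 114 genes in Type D and 0 members and 54 genes in Type V. Over Restored cells, 0 of 9 were called in Type D, against 0.0142% of genes, and 0 of 9 in Type V, against 0%, with 0 members and 229 and 100 genes at an unadjusted p under 0.05. The difference of the CsA effect between types in Restored cells, the difference CsA made to restoration in Type V, and the difference of the CsA effect in Control cells were each called in 0% of genes, and 0 members were called or had an unadjusted p under 0.05 in the fit without the block. With the replicate block 0 members were called in any of these comparisons. At an unadjusted limma p under 0.05 that fit held Sesn2 and Ddit4 for CsA alone in Type D, Ddit4 and Gls2 for CsA added to restored Type D, Fdxr for the type difference over Restored cells (unadjusted p = 0.0242, adjusted p = 0.748) and Sesn2 for that over Control cells (unadjusted p = 0.0308, adjusted p = 1). The change of Gls2 with CsA added to restored Type D was -0.50 log2 (95% interval -2.13 to 1.12, limma adjusted p = 1), lower in 3 of 3 lines, and with the block the interval was -0.96 to -0.04 (adjusted p = 0.352). Gls2 was at 4.95, 12.4 and 11.7 TPM in Type D with CsA alone and at 1.60, 4.501 and 4.30 with CsA and restoration, a change of -1.25 log2 that was not called without the block (limma adjusted p = 0.385) and was called with the replicate block (adjusted p = 0.000323), which called 3.78% of all genes lower. The 3 Type D lines changed by -1.28 to -1.19 log2, while their levels differed.

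**Figure D4:**
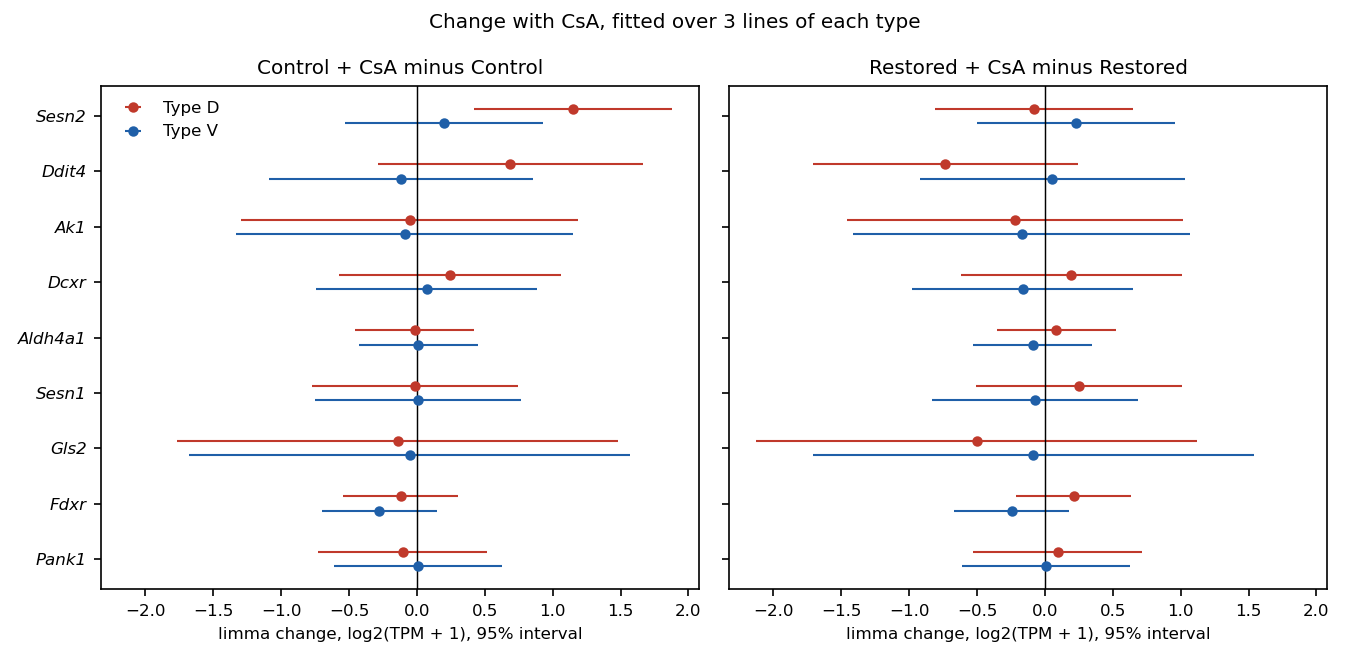
Change with CsA in log2(TPM + 1) over Control cells (left) and over Restored cells (right) for the 9 tested members; points are limma estimates over 3 lines and bars their 95% intervals, red Type D and blue Type V. All intervals include 0 except that of Sesn2 in Type D Control cells, 0.42 to 1.88.

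Other regulators of mTORC1 and AMPK were mostly near the centre of all genes. Of 52, all tested, 3 rose in Type D and the same 3 in Type V, and 0 fell, beside 4.49% and 3.39% of all genes called higher, with medians of 0.17 and -0.02 log2. These counts were near the share of all genes. Ddit4l, the paralogue of Ddit4, rose by 4.46 ± 0.53 log2 in Type D (1.52 to 4.00 TPM before, 69.5 to 103 after; limma adjusted p = 1.03e-05) and by 2.94 in Type V (adjusted p = 0.00109). Prkaa2, a catalytic subunit of AMPK, rose by 1.43 and 1.48 log2, and Castor1, an arginine sensor that inhibits GATOR2, by 1.41 and 1.36. Under CsA 2 of the 52, Ddit4l and Prkaa2, were called in each type.

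Of 34 other metabolic genes linked to p53, 29 were tested. 4 rose in both types, against the same shares of all genes as above, and the medians were 0.64 log2 (Type D) and 0.28 (Type V). Pltp, a phospholipid transfer protein, rose by 3.40 and 3.49 log2; Lpin1, a phosphatidate phosphatase and regulator of fatty acid oxidation, by 2.27 and 2.15; Acad11, an acyl-CoA dehydrogenase, by 1.51 and 1.91; and Fuca1, a lysosomal fucosidase, by 1.16 and 1.64. Of 35 paralogues and partners of the members, 31 were tested and 0 rose, with medians of -0.25 and -0.12 log2. Ppcs, the step after Pank1 in coenzyme A synthesis, fell by 1.06 log2 in Type D.

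Of 16 genes of the ATF4 response 3 rose with restoration in Type D, where 4.49% of all genes did: Atf3 by 1.82 log2, Ddit3 (CHOP) by 1.79 and Chac1, which breaks down glutathione, by 1.69. In Type V 0 rose and Psat1, of serine synthesis, fell by 1.72. The list median in Type D was 0.77 log2 for restoration and 0.77 for CsA alone, with 16 of 16 genes above 0 for CsA alone and 0 called. In Type V these medians were -0.02 and 0.15. The lines differed for restoration, with medians of 0.84, 0.90 and 0.43 log2 in Type D and -0.98, 0.73 and -0.20 in Type V. With CsA added to restored cells the list median was 0.48 log2 for Type D, with 13 of 16 genes above 0 and 0 called, while Sesn2 was at -0.08 and Ddit4 at -0.74. The Type D lines disagreed, with list medians of 0.66, -0.27 and 0.93 log2 and 3 of 16 genes above 0 in line 4711-18. Sesn2 was at -0.05, -0.40 and 0.21 in these lines and Ddit4 at -1.10, -0.67 and -0.43. For Type V the list median was 0.45, with 16 of 16 above 0 and 0 called, beside 0.23 for Sesn2 and 0.05 for Ddit4. By line, the median of CsA alone was 0.87, 0.98 and 0.66 log2 in the Type D lines and 0.31, 0.04 and 0.05 in the Type V lines, beside 1.53, 1.07 and 0.86 and then 0.59, 0.04 and -0.03 for Sesn2. The summed level of the list ran from 2557 to 2969 TPM in Type D Control and from 3984 to 5345 in Type D Control + CsA. Of 12 genes of the hypoxia response 11 were tested. Vegfa rose by 1.86 log2 with restoration in Type D, and the list median for CsA added to restored Type D was -0.72 log2, with 11 of 11 genes below 0 and 0 called. For CsA alone in Type D it was -0.06 log2, with 4 genes above and 7 below 0 and 0 called, while Ddit4 was at 0.69. The part of either program in the values of Sesn2 and Ddit4 was not tested.

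As a description over 24 libraries, which share lines and treatments, Dcxr, Ak1 and Aldh4a1 followed each other in log2(TPM + 1) with Pearson r of 0.916 to 0.969. The gene most like each member was Celf5 for Dcxr (r = 0.988), 1700003M07Rik for Aldh4a1 (0.984), Psrc1 for Ak1 (0.970), Klhdc1 for Sesn2 (0.963) and Homez for Ddit4 (0.891). Among those that did not pass the test it was Ift74 for Sesn1 (0.934), Acat1, an acetyl-CoA acetyltransferase, for Pank1 (0.931), Atg9a for Gls2 (0.873) and Plekhj1 for Fdxr (0.788). Sesn1 and Sesn2 had an r of -0.464.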

How the data were processed

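RNA of 24 libraries from 6 lines was sequenced with a stranded mRNA kit and single-end reads. The authors deposited 1 table of TPM, which sums to 1000000 in each library. Their methods name kallisto or HISAT2 and write mm10 and GRCm39, so the aligner and build behind the table are uncertain; per the labels HISAT2 was used. TPM holds no counts, so depth is unknown, no count test was run, and replicate spread alone sets the precision. P-values of the main fit measure the spread of libraries around their group means, pooled over 8 groups, with 1 library per line and treatment. For changes within a line that spread includes level differences between lines. The 4 libraries of a line were treated as independent, so type comparisons rest on 6 lines but were tested as if on more.

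Values were analysed as log2(TPM + 1), which understates changes of low genes, with limma 3.58.1 in R 4.3.3 (trend, 1 coefficient for each of 8 groups, two-sided). Benjamini-Hochberg adjustment ran over 14104 genes within each of 16 comparisons, 4 of them added after the values were seen. The scripts were tested on simulated data. The members and lists were chosen with earlier results of these data known. All members are named, with up to 4 genes called per list and type and the gene most like each member; a few genes that this rule or the marker lists would name are not reported here. Libraries of 1 line share their cells, as the labels state; after removing group means they correlated with r of 0.599 to 0.929 (36 pairs), and pairs from other lines with r between -0.675 and 0.0438. The replicate block was an alternative. Others were no filter, a TPM minimum of 5, a pseudocount of 0.1, quantile and median-ratio scaling, the compared groups alone and leaving out each line. Gene positions and overlaps came from a GRCm38 annotation and promoters from RefSeq. Figures used matplotlib 3.10.9.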

Additional observations from a re-analysis of the deposited data

Results flagged for a closer look

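Fdxr was the 1 tested member whose lines moved in opposite directions in the types when CsA was added to Restored cells. It was higher in 3 of 3 Type D lines, by 0.213 log2 on average, and lower in 3 of 3 Type V lines, by -0.246 on average, a difference of 0.459. The limma test of this difference gave an adjusted p of 1 (95% interval -0.14 to 1.06), so it was not called.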

How the results depend on the processing

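The members called in the 4 restoration comparisons kept their direction under all alternatives run; their number was 4 to 5 without any 1 line in Type D and in Type V, 3 to 4 in Type D under CsA and 4 to 5 in Type V under CsA, and 2 in Type V under CsA with the compared groups alone (fewer samples share the spread). The count for Type D minus Type V in Control was 0 with no filter and 0 with the compared groups alone, and 0 to 1 without any 1 line; in Restored cells it was 0 to 1. The replicate block raised the count for the response under CsA between types from 0 to 1 (Ddit4, adjusted p = 0.0308) and called Gls2 under CsA in Type D (-1.25 log2, adjusted p = 0.000323); it changed no other call among the results given. Over all genes it raised the calls for restoration from 977 to 1582 (Type D) and 746 to 1222 (Type V), and from 763 to 1366 and 650 to 1124 under CsA. Values close to 0 turned sign: Fdxr with restoration was -0.057 log2 in Type D under median-ratio scaling and -0.090 under quantile normalization, and without any 1 line ran from -0.072 to 0.131 in Type D and from -0.073 to 0.295 in Type V. Gls2 under CsA in Type V ran from -0.498 to 0.109. Comparisons of levels between types cannot take the block, since no line belongs to both types. Differences of response between types can take it. Absolute RNA content, cell number and depth cannot be read from TPM.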
